A study of Homo sapiens with 4 samples.

Results

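The genes described here are 9 homologous recombination genes, RBBP8, BRCA1, BARD1, PALB2, BRCA2, RAD51C, XRCC2, XRCC3 and RAD54L. They were chosen by gene name, and each name matched 1 row, so that they are 9 of the 58174 rows with a gene identifier and of the 59263 rows in all. The cells were SW1990 and PANC-1, established lines of human pancreatic cancer, and RNA was taken from unirradiated cells and from cells given 10 Gy of X-rays. There was 1 library for each line and treatment, 4 libraries in all. SW1990 and PANC-1 cells were grown in different media, so line and medium cannot be told apart. The time from radiation to RNA collection and the genotypes of the lines are not given in the sources used here, and no group carries another treatment. For each gene and library the table holds a read count and an FPKM value, which is scaled to transcript length and library size. The SW1990 libraries held 17851815 (unirradiated) and 18305682 (irradiated) counts on gene rows, and the PANC-1 libraries 23323266 and 20026595.

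The labels were first compared with cell type markers. The keratins KRT8, KRT18 and KRT19 were high in both lines, KRT8 with an FPKM of 1350, 1890, 786 and 851 (here and below in the order unirradiated SW1990, irradiated SW1990, unirradiated PANC-1, irradiated PANC-1). The other listed keratins were lower, KRT7 with an FPKM of 5.79, 6.02, 6.35 and 5.02. KRT17 was at 3.46 and 3.78 in SW1990 and at 0 and 0.0524 in PANC-1 cells. The epithelial adhesion gene EPCAM had 7348 and 7552 counts in SW1990 but 108 and 113 in PANC-1 cells, and the mesenchymal filament gene VIM had 17 and 0 against 82406 and 75166. Of the 3 leucocyte genes, PTPRC and CD3E had 2 counts at most in any library, while CD68, which is most abundant in macrophages, had 31 and 37 counts in SW1990 and 967 and 583 in PANC-1 cells. Of the 3 endothelial genes, PECAM1 had 2 counts at most, CDH5 8 and VWF 50 (irradiated SW1990 cells). Of the 4 fibroblast genes, COL1A2, DCN and LUM had 2 counts at most, while COL1A1 had 103 and 165 counts in SW1990 and 965 and 1315 in PANC-1 cells. The FPKM values of these 3 lists summed to 0.844, 0.938, 18.8 and 13.9 for leucocyte genes, to 0.309 at most for endothelial genes and, for fibroblast genes, to at most 2.85 in SW1990 and at least 8.46 in PANC-1 cells. Nearly all of the leucocyte and fibroblast sums in PANC-1 cells was CD68 and COL1A1, and the part of these genes in the results was not tested. In both lines KRT8, KRT18 and KRT19 were thus high, while EPCAM marked SW1990 cells and VIM marked PANC-1 cells.

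Homologous recombination repairs a double-strand break by copying the intact sister chromatid, and so works mainly in S and G2 phase. RBBP8 encodes CtIP, which starts resection of the broken ends. BRCA1 and BARD1 form a ubiquitin ligase that favours resection and later steps, PALB2 links BRCA1 to BRCA2, and BRCA2 helps to build the protein filament on single-stranded DNA that searches for the template. RAD51C, XRCC2 and XRCC3 are related proteins that assist this filament, and RAD54L encodes a motor protein that helps the filament pair with its template. Ionizing radiation makes the breaks on which these proteins act, and part of their control is known to lie in protein recruitment and modification, which RNA does not show.

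By the coordinates in the table (GRCh38), RBBP8 lies on chromosome 18 from 22798261 to 23026488 (plus strand), BRCA1 on chromosome 17 from 43044295 to 43170245 (minus), BARD1 on chromosome 2 from 214725646 to 214809711 (minus) and PALB2 on chromosome 16 from 23603160 to 23641310 (minus). BRCA2 lies on chromosome 13 from 32315474 to 32400266 (plus), RAD51C on chromosome 17 from 58692573 to 58735611 (plus), XRCC2 on chromosome 7 from 152644779 to 152676165 (minus), XRCC3 on chromosome 14 from 103697609 to 103715504 (minus) and RAD54L on chromosome 1 from 46247688 to 46278473 (plus). The genes thus lie on 8 chromosomes, and BRCA1 and RAD51C share chromosome 17. Exons of XRCC3 share 5756 bases, 76.7% of its exonic bases, with KLC1 on the opposite strand, and those of RAD54L share 806 bases (25.1%) with LRRC41 on the opposite strand. The strand setting of the counting is not given in the sources used here, so reads in the shared bases of these pairs cannot be told apart. The other members share under 2% of their exonic bases with any one gene.

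The promoters of XRCC2, RAD54L and PALB2 are shown because XRCC2 and RAD54L had the largest log2 fold changes from counts among the members after radiation in SW1990 and in PANC-1 cells, and PALB2 was the only member with fewer scaled counts in SW1990 than in PANC-1 cells. The sequences are those of RefSeq on GRCh38.p14, the 250 bases before the gene's start, for XRCC2 chr7:152676142-152676391 (minus strand), for RAD54L chr1:46247438-46247687 (plus strand) and for PALB2 chr16:23641311-23641560 (minus strand). Capitals mark matches on either strand of 3 motifs, chosen after the values were seen: the cyclic AMP response element TGACGTCA, the CCAAT box CCAAT and the GC box GGGCGG, whose matches in part overlap one another.
XRCC2: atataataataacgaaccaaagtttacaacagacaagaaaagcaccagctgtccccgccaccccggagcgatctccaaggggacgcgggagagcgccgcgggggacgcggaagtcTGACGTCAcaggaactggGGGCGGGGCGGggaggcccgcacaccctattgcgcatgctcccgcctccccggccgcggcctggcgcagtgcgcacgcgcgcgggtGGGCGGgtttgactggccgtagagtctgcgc
RAD54L: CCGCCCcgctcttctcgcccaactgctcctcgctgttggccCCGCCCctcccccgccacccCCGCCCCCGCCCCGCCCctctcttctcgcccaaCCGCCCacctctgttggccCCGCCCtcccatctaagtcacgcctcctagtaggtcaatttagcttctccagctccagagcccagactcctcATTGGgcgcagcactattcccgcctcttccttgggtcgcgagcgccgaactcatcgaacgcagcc
PALB2: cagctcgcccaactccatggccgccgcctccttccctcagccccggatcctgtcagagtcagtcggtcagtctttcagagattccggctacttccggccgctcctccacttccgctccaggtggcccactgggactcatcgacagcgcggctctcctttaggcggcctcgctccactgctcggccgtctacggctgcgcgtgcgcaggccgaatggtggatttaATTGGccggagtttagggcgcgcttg
XRCC2 holds the response element 135 bases before its start, with GC boxes between it and the start. RAD54L holds a run of GC boxes at its distal end, and PALB2 holds a CCAAT box 26 bases before its start and no GC box. Over all 35116 RefSeq promoter windows (250 bases before to 50 after a start), the response element was found in 1.85%, the CCAAT box in 34.6% and the GC box in 45%. Of the 9 members, which have 13 such windows, 2 (RAD51C and XRCC2) hold the response element, 4 (BRCA1, PALB2, RAD54L and XRCC3) the CCAAT box, and 6 (BARD1, BRCA1, RAD54L, RBBP8, XRCC2 and XRCC3) the GC box. Counted by window, as for the shares of all windows, 3 of the 13 held the response element, 5 the CCAAT box and 8 the GC box. Windows of the same gene can overlap, so a match can be counted more than once. The RAD51C windows with a match hold the same copy of the response element, and the RAD54L windows share CCAAT and GC box matches. The E2F motif in its forms TTTCGCGC, TTTGGCGC, TTTCCCGC and TTTGCCGC was found in 3.31% of all windows and in 1 member, XRCC2, 22 bases after its start. A match is a description of the letters and not a bound site.

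All 9 genes were expressed in every library, with FPKM values between 4.87 and 70.1. The most abundant was RBBP8, with an FPKM of 70.1 and 61.7 in SW1990 and 23.2 and 13.1 in PANC-1 cells without and with radiation. It was the highest of the 9 in the SW1990 libraries and in unirradiated PANC-1 cells, while in irradiated PANC-1 cells BRCA1 (15.1), RAD54L (14.6) and XRCC3 (14.2) were above it. BRCA1 had an FPKM of 30.8, 28.9, 19.8 and 15.1, and its partner BARD1 13.9, 12.3, 7.25 and 9.86. The ratio of BRCA1 to BARD1 was 2.22, 2.35 and 2.74 in the first 3 libraries and 1.53 in irradiated PANC-1 cells, where BRCA1 was lowest. BRCA2 had an FPKM of 14.3, 17.3, 6.03 and 5.77, and PALB2 11.3, 8.55, 11.1 and 10.9. Relative to PALB2, BRCA2 was thus at 1.26 and 2.02 in SW1990 and at 0.543 and 0.527 in PANC-1 cells, on opposite sides of parity in the lines. Among the genes that assist the filament, RAD51C and XRCC3 were near each other in unirradiated SW1990 cells (23.0 and 24.9). In irradiated SW1990 cells RAD51C (21.1) stood below XRCC3 (27.5), as it did in PANC-1 cells (7.38 and 4.87 against 14.2 and 14.2). XRCC2 was at 12.2, 16.3, 8.71 and 7.73, and RAD54L at 21.0, 24.1, 11.1 and 14.6. The 9 FPKM values summed to 222 and 218 in SW1990 and to 109 and 96.1 in PANC-1 cells. With 1 library per condition these levels have no error between replicates, and an order among genes of near values is not tested.

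**Figure D1:**
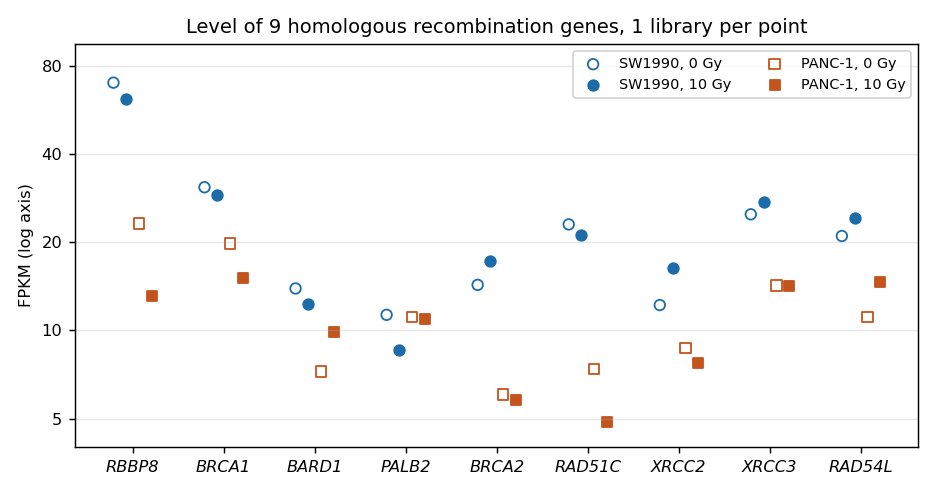
FPKM (log axis) of the 9 homologous recombination genes, 1 point per library, with circles for SW1990, squares for PANC-1 cells, open symbols for 0 Gy and filled symbols for 10 Gy. For 8 genes both SW1990 points lie above both PANC-1 points, and PALB2 is the exception, with 8.55 in irradiated SW1990 cells below 11.1 and 10.9 in PANC-1 cells.

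The lines are compared first, since all 9 genes passed the q-value limit there. The counts of 2 libraries were compared with an exact binomial test (edgeR, libraries scaled by TMM, Benjamini-Hochberg adjustment over all genes tested), and genes with a q-value below 0.001 and a fold above 2 were called. This compares libraries rather than conditions, and the 95% intervals hold counting error alone. In unirradiated cells 3 of 9 members were called, all higher in SW1990, against 17.3% of all genes tested that were called higher in SW1990. At an assumed coefficient of variation between replicates of 0.2, 1 member was called, against 10.5% of all genes called higher, and at 0.4 none, against 4.92%. By the q-value alone 8 members were higher in SW1990, against 32.4% of all genes, and PALB2 was lower, against 35.3%. The median log2 ratio of the members was 0.81, against -0.02 over all genes. The irradiated libraries, which are other libraries of the same lines, also gave 3 of 9 called higher, against 17.3% of all genes, with a median of 0.79. By the q-value alone 8 members were higher there, against 32.8% of all genes, and PALB2 was lower, against 33.5%. A small difference passes the q-value limit more easily in a deeply read gene. The shares of all genes given here were not matched to the members' counts.

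RBBP8, the resection factor, had 3816 and 3437 counts in SW1990 and 1344 and 923 in PANC-1 cells. Both SW1990 libraries were far above both PANC-1 libraries. Its log2 ratio between the lines was 1.66 (95% interval 1.57 to 1.75) without and 1.94 (1.84 to 2.05) with radiation, called in both. RAD51C had 562 and 553 counts in SW1990 against 211 and 160 in PANC-1 cells, with log2 ratios of 1.57 (1.34 to 1.81) and 1.83 (1.58 to 2.10), also called in both. These were the members with the widest gap between the lines, and RAD51C had the fewest reads of the 9. BRCA2 had 2965 and 3401 counts in SW1990 and 1856 and 1557 in PANC-1 cells. Its log2 ratio was 0.83 (0.75 to 0.92) in unirradiated cells, under the fold limit, and 1.18 (1.09 to 1.26) in irradiated cells, where it was called. RAD54L had 1265 and 1147 counts in SW1990 and 686 and 961 in PANC-1 cells. It was called without radiation, just past the fold limit, at 1.04 (0.91 to 1.18), and was at 0.30 (0.18 to 0.43) with radiation. The members closest to the limit in unirradiated cells were RAD54L on the inside and BRCA2 and BARD1 (0.81) on the outside. With folds from FPKM the called members in unirradiated cells were RBBP8, RAD51C and BRCA2 (1.25), and RAD54L (0.92) was under the limit. These 3 of 9 stand against 20.8% of all genes called higher with an FPKM of 0 set to 0.01. With a pseudocount of 1 the same 3 were called, against 17.8%. In irradiated cells folds from FPKM, with 0 set to 0.01, gave 4 called members, against 18.7% of all genes called higher. These were RBBP8, RAD51C, BRCA2 and XRCC2 (1.07). With a pseudocount of 1 there were 3, without XRCC2, against 15.9% of all genes.

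From TMM-scaled counts the other members differed by less than 2-fold in either comparison. BRCA1 had 1775 and 1783 counts in SW1990 and 1398 and 1068 in PANC-1 cells, with log2 ratios of 0.50 and 0.79, and BARD1 had 1294, 1179, 822 and 841 counts, with 0.81 and 0.54. XRCC3 (1189, 1188, 852 and 806 counts) had log2 ratios of 0.64 and 0.61, and KLC1, which shares most of its exonic bases, 0.72 in unirradiated cells. XRCC2 was at 0.27 without and 0.87 with radiation. PALB2, which couples BRCA1 to BRCA2, ran the other way. It had 736 and 606 counts in SW1990 against 1109 and 875 in PANC-1 cells, with log2 ratios of -0.43 (-0.57 to -0.30) and -0.48 (-0.63 to -0.33). From FPKM the ratio of PALB2 was 0.03 without and -0.36 with radiation, so its lower level in unirradiated SW1990 cells was seen in the counts and not in the FPKM values.

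**Figure D2:**
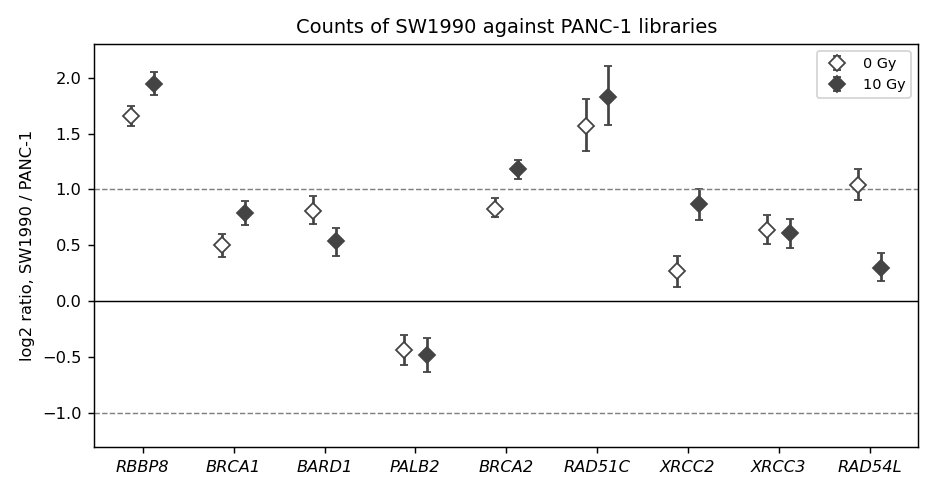
Log2 ratio of TMM-scaled counts, SW1990 over PANC-1, for each gene in unirradiated (open) and irradiated (filled) libraries, with 95% Clopper-Pearson intervals of the counts and dashed lines at a 2-fold difference. The 8 genes other than PALB2 lie above 0 at both doses, and RBBP8 and RAD51C lie above the 2-fold line at both.

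A joint fit of the 4 libraries by the quasi-likelihood test of edgeR, with treatment as a covariate, leaves 1 residual degree of freedom. Here 6 of 9 members were higher in SW1990 at an adjusted p-value below 0.05, against 21.4% of all genes tested. In this quasi-likelihood fit RBBP8 had a log2 ratio of 1.81 (adjusted p = 0.002), RAD51C 1.71 (adjusted p = 0.005) and BRCA2 1.01 (adjusted p = 0.009). BRCA1 (0.65), BARD1 (0.68) and XRCC3 (0.63) also passed, while the fit did not call RAD54L (0.68, adjusted p = 0.073), XRCC2 (0.57, adjusted p = 0.082) or PALB2 (-0.45, adjusted p = 0.073). With no filter beyond 1 count the fit gave 3 members higher in SW1990 instead of 6, against 2918 of 30227 genes. The 2 libraries of a line in this fit differ in treatment, and nothing in the labels says that they came from separate cultures.

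S-phase genes, such as those for DNA licensing and nucleotide supply, also stood higher in SW1990 cells. In unirradiated libraries 22 of the 23 genes of this list had a higher scaled count in SW1990, 5 of them called (against 17.3% of all genes) and 20 past the q-value limit (against 32.4%), with a median log2 ratio of 0.66, whereas 15 of 20 G2/M genes were lower, with a median of -0.33. The part of these cell cycle genes in the difference of the recombination genes was not tested. With scaling by total counts, the median of all genes moved from -0.02 to 0.20, that of the members from 0.81 to 1.04, and 5 members were called in unirradiated cells, against 21.3% of all genes called higher in SW1990 with this scaling.

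After radiation no member was called in either line. In SW1990 cells 0 of 9 were called, against 4.23% of all genes tested, and in PANC-1 cells 0 of 9, against 4.76%. By the q-value alone 3 of 9 passed in each line, against 26.8% of all genes in SW1990 and 34.9% in PANC-1 cells, so that the members' share was near that of all genes. A small change passes more easily in a deeply read gene, and among genes with summed counts in the members' range the share was 38.9% in SW1990 and 38.8% in PANC-1 cells. The median log2 fold change of the members was 0.00 in SW1990 (4 higher and 5 lower) and -0.12 in PANC-1 cells (3 higher and 6 lower), against 0.02 and -0.02 over all genes. Their median absolute change was 0.12 and 0.21, against 0.16 and 0.23 for genes in the same count range.

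In SW1990 cells, the genes past the q-value limit were XRCC2 and BRCA2, both higher, and RBBP8, lower. XRCC2 had 894 counts without and 1234 with radiation, 1.40-fold, with a log2 fold change of 0.49 (0.36 to 0.61, q = 1.5e-13). From counts this was the largest change of a member in this line, and the FPKM values gave 0.41. BRCA2 changed by 0.22 (0.15 to 0.29, q = 1.3e-08) and RBBP8 by -0.13 (-0.20 to -0.06, q = 0.00049) in the same edgeR test, both small against the 2-fold limit. PALB2 was at -0.26 (-0.42 to -0.10, q = 0.0035), which did not pass, and at -0.41 from FPKM. BRCA1, BARD1, RAD51C, XRCC3 and RAD54L lay between -0.12 and 0.03. From FPKM the log2 fold change of RAD54L was 0.20, opposite in sign to -0.12 from the counts, that of XRCC3 was 0.15 against 0.02, and that of BRCA1 was -0.09 against 0.03.

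In PANC-1 cells RAD54L passed the q-value limit as higher, and RBBP8 and BRCA1 as lower. RAD54L had 686 counts without and 961 with radiation, 1.53-fold, with a log2 fold change of 0.62 (0.47 to 0.76, q = 7.1e-17), or 0.40 from FPKM. The 686 counts of the unirradiated PANC-1 library enter both this change and the comparison of the unirradiated lines, in which RAD54L was called. LRRC41, which shares exonic bases with RAD54L, was at 0.03 (-0.10 to 0.15) in the same libraries. LRRC41 was at 0.20 (0.10 to 0.31) after radiation in SW1990 cells. Between the unirradiated lines it was higher in SW1990, with a log2 ratio of 0.48 (0.36 to 0.60). RBBP8 went from 1344 to 923 counts, a log2 fold change of -0.41 (-0.53 to -0.29, q = 1.2e-10), and BRCA1 from 1398 to 1068 counts, -0.26 (-0.37 to -0.14, q = 3.6e-05). From FPKM these falls were deeper, -0.82 for RBBP8 and -0.40 for BRCA1. RAD51C was at -0.27 (-0.57 to 0.03, q = 0.13) from counts and at -0.60 from FPKM, and BARD1 at 0.16 (0.02 to 0.30, q = 0.044) and 0.44. PALB2 was at -0.21 (-0.34 to -0.08, q = 0.0031), BRCA2 at -0.12, XRCC2 at -0.11 and XRCC3 at 0.05, and none of these passed. KLC1, which shares exonic bases with XRCC3, was at -0.23 (-0.32 to -0.13) in PANC-1 and at 0.16 (0.09 to 0.23) in SW1990 cells.

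**Figure D3:**
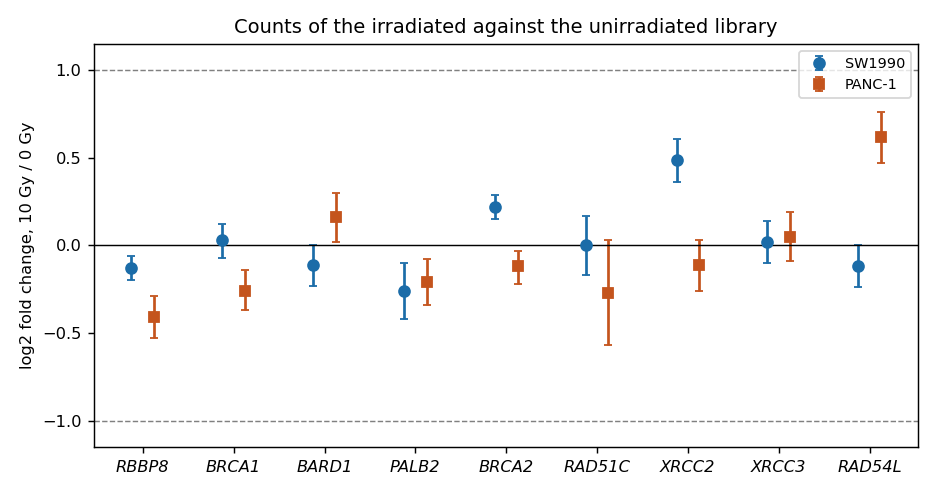
Log2 fold change of TMM-scaled counts, 10 Gy over 0 Gy, for each gene in SW1990 (circles) and PANC-1 cells (squares), with 95% Clopper-Pearson intervals of the counts and dashed lines at a 2-fold change. Every point lies between the dashed lines, with XRCC2 in SW1990 cells (0.49) and RAD54L in PANC-1 cells (0.62) the highest and RBBP8 in PANC-1 cells (-0.41) the lowest.

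The difference of the responses was tested on the counts of the 4 libraries (Wald test, Benjamini-Hochberg adjustment), with counting error only, so that it compares these libraries and not the lines. No member was called at a q-value below 0.001 and a ratio above 2, against 6.30% of all genes tested. By the q-value alone 5 of 9 passed, against 29.0% of all genes. A small difference passes more easily in a deeply read gene, and this share was not matched to the members' counts. From counts RAD54L had the largest difference, SW1990 minus PANC-1, of -0.74 ± 0.09 (SE from counting error, as for the others), followed by XRCC2 at 0.60 ± 0.10. BRCA2 was at 0.34 ± 0.06, BRCA1 at 0.29 ± 0.08 and RBBP8 at 0.28 ± 0.07. Relative to its own unirradiated library, RAD54L thus stood higher in PANC-1 than in SW1990 cells, and the other 4 stood lower. BARD1 (-0.28 ± 0.09, q = 0.007), RAD51C (0.27 ± 0.17), PALB2 (-0.05 ± 0.10) and XRCC3 (-0.03 ± 0.09) did not pass. From FPKM, with no test, the order was another, with RBBP8 at 0.63, BARD1 at -0.61, XRCC2 at 0.58, RAD51C at 0.48, PALB2 at -0.39, BRCA2 at 0.33, BRCA1 at 0.31, RAD54L at -0.20 and XRCC3 at 0.15. The interval of the difference from counts was -0.25 to 0.15 for PALB2 and -0.21 to 0.15 for XRCC3.

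Over both lines the quasi-likelihood fit with cell line as a covariate called 0 of 9 members and 0% of 18180 genes for radiation at an adjusted p-value below 0.05. At an unadjusted p-value below 0.05 it gave 0 members and 833 genes. DESeq2 called 39 genes and limma 1 gene at an adjusted p-value below 0.05, none of them a member. At an unadjusted p-value below 0.05 limma gave 1 member, against 5.86% of all genes tested. The common coefficient of variation between libraries in the edgeR fit was 0.218.

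The counts and the FPKM values did not always give the same size of change. The log2 fold change from counts exceeded that from FPKM by 0.49 for RBBP8 in PANC-1 cells after centring on all genes, at percentile 97.7 of 13576 genes, and by 0.41 for RAD51C (percentile 96.6). For RAD54L the difference was -0.37 in SW1990 (percentile 4.01 of 13950 genes) and 0.30 in PANC-1 cells (percentile 94.2). The middle 90% of genes lay between -0.33 and 0.34 in SW1990 cells and between -0.34 and 0.33 in PANC-1 cells, so most members were within the usual spread. Which of the measures is nearer to the RNA level was not tested.

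**Figure D4:**
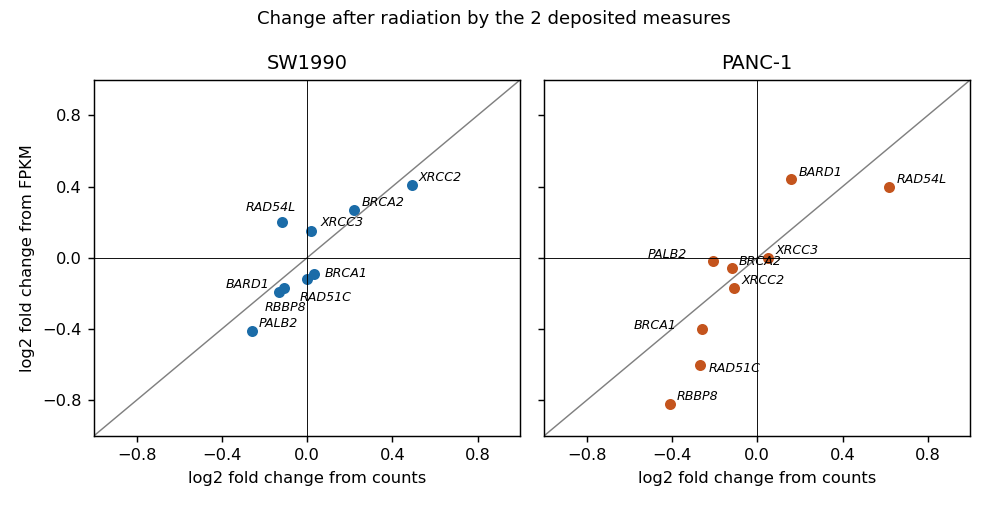
Log2 fold change after radiation from FPKM (vertical) against that from counts (horizontal) for the 9 genes in SW1990 (left) and PANC-1 cells (right), with the grey line at equal values. RAD54L in SW1990 cells lies on opposite sides of 0 by the measures (-0.12 from counts and 0.20 from FPKM), and RBBP8 in PANC-1 cells lies at -0.41 and -0.82.

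NBR2, annotated as a non-coding RNA of a bidirectional promoter, overlaps the span of BRCA1 on the opposite strand and none of its exons. It had 84 and 110 counts in SW1990 and 471 and 210 in PANC-1 cells. NBR2 was called lower after radiation in PANC-1 cells, with a log2 fold change of -1.03 (-1.28 to -0.80, q = 4e-18), while BRCA1 was at -0.26 in the same libraries. In unirradiated cells it was called lower in SW1990, at -2.32 (-2.68 to -1.99), where BRCA1 was at 0.50. NBR2 was named after its values were seen.

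The other lists were read by the q-value limit of 0.001. Of all genes tested, 16.3% passed it as higher and 10.5% as lower in SW1990, and 15.5% as higher and 19.4% as lower in PANC-1 cells, and the counts of the lists stand beside these shares without a test. Of 47 other homologous recombination genes listed by role, none was called after radiation with folds from counts, while folds from FPKM put RAD51B (1.17) and HELQ (1.08) past both limits in PANC-1 cells. In SW1990 cells 46 were tested, with 3 higher and 7 lower at a q-value below 0.001 and a median log2 fold change of -0.04. In PANC-1 cells 45 were tested, with 11 higher and 3 lower and a median of 0.10. Between the unirradiated lines 3 of 46 tested were called higher and 3 lower in SW1990, against 2872 and 3139 of all 16626 genes. Their median was 0.11, below the members' 0.81.

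In end resection (8 genes), 2 were higher and 1 lower in SW1990 and 1 higher in PANC-1 cells by the q-value. RAD50, a subunit of the complex that senses breaks, had 1819 and 3557 counts in SW1990 and 3200 and 2700 in PANC-1 cells. Its log2 fold change of 0.99 in SW1990 cells lay just under the 2-fold limit, but it was 0.14 from FPKM, and RAD50 shares 79.7% of its exonic bases with AC116366.3 on the same strand, so its counts are uncertain. DNA2, a nuclease of long-range resection, was at -0.27 in SW1990 (past the q-value limit) and at 0.20 in PANC-1 cells (not past it). In strand exchange and its mediators (12 genes, 11 and 10 tested), none passed in SW1990 and 1 passed in PANC-1 cells, RAD51B, at 0.67 after -0.23 in SW1990 cells. SWI5, an accessory factor of strand exchange, was at 0.36 and -0.17, neither past the limit. Of the 7 BRCA1 partners, 2 were lower in SW1990 and 1 was higher in PANC-1 cells. BABAM1 (0.20 and 0.45) passed in PANC-1 and BABAM2 (-0.44 and -0.22) in SW1990 cells, both subunits of the BRCA1-A complex.

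Genes that act on the filament or on late intermediates follow. Of 6 genes of filament removal, 1 was higher and 1 lower in SW1990, and 3 were higher and 1 lower in PANC-1 cells. RTEL1, a helicase that takes apart recombination intermediates, was at 0.34 and 0.72, past the q-value limit in both, although it shares 70.2% of its exonic bases with the read-through gene RTEL1-TNFRSF6B. HELQ, a helicase, was at 0.20 and 0.65 and passed in PANC-1 cells. Of 14 genes of resolution and late steps, 3 were lower in SW1990, and 5 were higher and 2 lower in PANC-1 cells. EME2, a partner of the MUS81 nuclease, had 1043 and 1103 counts in SW1990 and 604 and 1052 in PANC-1 cells, with log2 fold changes of 0.10 and 0.93, and shares 30.0% of its exonic bases with SPSB3 on the opposite strand. TONSL, which works at damaged replication forks, was at 0.12 and 0.63 and passed in PANC-1 cells.

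Competing and connected pathways were compared in the same way. Of 6 genes of end protection, which limits resection, 5 were found, and in SW1990 cells all 5 had a log2 fold change below 0, 3 of them past the q-value limit, with a median of -0.28. In PANC-1 cells 3 of 5 had a log2 fold change below 0, 1 of them past the limit, with a median of -0.06. SHLD2 was lower in both lines, at -0.28 and -0.35, while SHLD1 rested on 42 and 15 counts in SW1990 (-1.43, q = 0.0017) and 52 and 48 in PANC-1 cells (0.02), and did not pass. Of 11 end joining genes, 1 was higher and 2 lower in SW1990 (median 0.07), and 2 were lower in PANC-1 cells (median -0.16). DCLRE1C, the Artemis nuclease, was at -0.29 and -0.36 and did not pass, and PAXX, an end joining scaffold factor, was at -0.47 and -0.16 and passed in SW1990 cells. Of 15 Fanconi anaemia genes, 3 were higher and 1 lower in SW1990 (median 0.04), and 5 were higher in PANC-1 cells (median 0.18). FANCM was at 0.25 and 0.48, past the q-value limit in PANC-1 cells, where its FPKM gave 1.01, past the fold limit too, and FAAP20 at 0.57 and 0.12, past it in SW1990 cells. Between the unirradiated lines the median log2 ratio of end joining genes was 0.01 and that of Fanconi anaemia genes 0.20.

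Cell cycle genes were read beside the members because recombination is tied to S and G2 phase. Of 23 S-phase genes, 3 were higher and 5 lower in SW1990 (median -0.04), and 12 were higher and 1 lower in PANC-1 cells (median 0.18). TK1, a nucleotide salvage enzyme, was at 0.46 and 0.57, and CDC6, an origin licensing factor, at 0.46 and 0.41, past the q-value limit in both lines. Of 20 G2/M genes, 8 were higher and 2 lower in SW1990 (median 0.09), and 10 were higher and 5 lower in PANC-1 cells (median 0.14). The mitotic kinase CDK1 was at 0.25 and 0.52 and the spindle gene NUSAP1 at -0.37 and -0.66, all past the limit. In PANC-1 cells the members' median (-0.12) and that of the S-phase genes (0.18) thus had opposite signs, and the part of the cell cycle in the members' values was not tested. Of 15 regulators, 4 were higher and 1 lower in SW1990, and 5 were higher and 7 lower in PANC-1 cells. CDKN1A, the p21 inhibitor of cyclin-dependent kinases and a p53 target, was the only gene of all these lists called after radiation with folds from counts, with 1229 and 4002 counts in SW1990 (1.72, 1.63 to 1.82) against 1282 and 782 in PANC-1 cells (-0.58, -0.71 to -0.45). E2F7, a repressor of E2F target genes, was at -0.39 and -0.78, lower past the q-value limit in both lines.

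**Figure D5:**
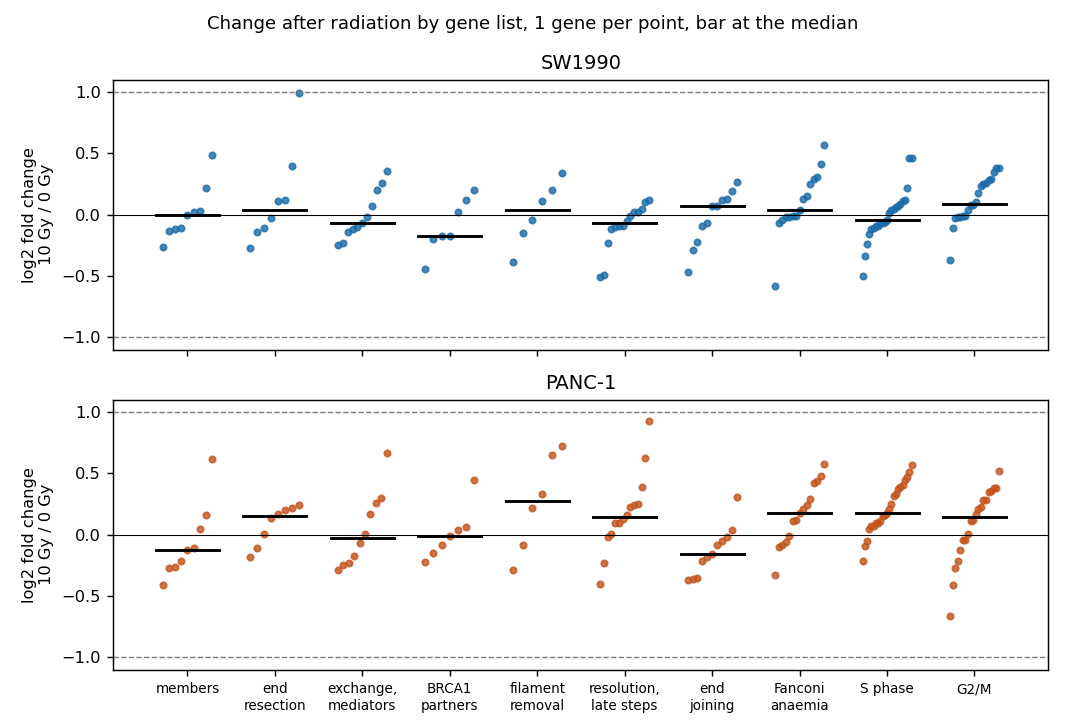
Log2 fold change of counts, 10 Gy over 0 Gy, of the genes tested in the 10 lists drawn, 1 point per gene (end protection and regulators are not drawn), with SW1990 above and PANC-1 below, a black bar at each list's median and dashed lines at a 2-fold change. No point drawn passes a dashed line, RAD50 in SW1990 cells (0.99) comes nearest, and the S-phase median is -0.04 in SW1990 and 0.18 in PANC-1 cells.

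The genes whose changes lay nearest to the members' medians were sought among the 11881 genes whose FPKM reached 1 in all 4 libraries, by the Euclidean distance over 3 log2 differences (radiation in SW1990, radiation in PANC-1, and the unirradiated lines). The nearest were FBXO4 (distance 0.030), BBS7 (0.048), UBA6 (0.050), NMI (0.054) and EIF1AX (0.071). The nearest, FBXO4, had log2 differences of -0.03, -0.12 and 0.83, against 0.00, -0.12 and 0.81 for the members' medians. This likeness rests on 4 libraries in which the 3 differences share 2 libraries, and it is a description.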

How the data were processed

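The members and gene lists were chosen with earlier results of these data known. RNA of 4 samples was sequenced, with 1 library per group, and groups were taken from the sample labels. Per the submitters' processing notes and the study's methods, CASAVA 1.8, FastQC 0.11.2, Trimmomatic 0.36, HISAT2 2.0, StringTie 1.3.3b and DESeq2 1.12.4 were used. The authors deposited read counts per gene without normalization, and the tool that counted them is not given in the sources used here. The authors also deposited FPKM values. The labels name ribosomal RNA removal and the methods an mRNA kit. Of the rows, 1089 name no gene and held 0.453% to 0.635% of counts, and neither library sizes nor tests include them. Gene names turned into dates (27) were restored from identifiers. The table's coordinates were those of GENCODE 29 for 96.8% of gene rows matched.

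Genes that reached an FPKM of 1 in 1 of 2 libraries were tested with edgeR 4.0.16 (R 4.3.3), binomTest with TMM scaling, which is exact for summed counts up to 10000. Fold changes had 0.5 added to each count. All 9 members passed the filter in every comparison. The q-value limit of 0.001 and fold limit of 2 follow the study's supplementary methods. Differences of responses were tested from counts, and edgeR's quasi-likelihood test was fitted to 4 libraries, with DESeq2 1.42.0 and limma 3.58.1 (on log2(FPKM + 1)) as alternatives. The read tests were checked on simulated data, and the outcome of that check is not reported here. Named are all members, every listed gene called after radiation, the 2 genes per list with the largest mean absolute change, and the 5 nearest neighbours. NBR2, KLC1 and LRRC41 were named after their values were seen. Overlap with other genes was read from GENCODE 29. Some items are not reported here. Library scaling, the FPKM filter, the fold limit, an assumed coefficient of variation and the count added were varied. Calls by q-value alone, calls of listed genes and response differences with folds from FPKM, the comparison of the irradiated lines and other counts added for the median were chosen after seeing the data. With 1 library per group no replicate could be left out.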

Additional observations from a re-analysis of the deposited data

Results flagged for a closer look

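The log2 fold change after radiation differed between the pairs of libraries of the lines for 5 members by the Wald test of the difference, at a q-value below 0.001. The difference of the log2 fold changes, SW1990 minus PANC-1, was 0.29 for BRCA1, 0.34 for BRCA2, -0.74 for RAD54L, 0.60 for XRCC2 and 0.28 for RBBP8. The test holds counting error only, 29.0% of all genes tested passed it, and no replicate was available to give the spread between cultures. That share was not matched to the members' counts, and a small difference passes more easily in a deeply read gene. From FPKM the differences were 0.31 for BRCA1, 0.33 for BRCA2, -0.20 for RAD54L, 0.58 for XRCC2 and 0.63 for RBBP8, with the same signs, smaller for RAD54L and larger for RBBP8.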

How the results depend on the processing

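The count of genes called after radiation was 665 in SW1990 and 721 in PANC-1 cells. With an FPKM of at least 1 in both libraries it was 419 and 443, with a fold limit of 1.5 it was 1492 and 1794, with an assumed coefficient of variation of 0.2 it was 97 and 103, with 0.4 it was 16 and 10, with folds from FPKM and a pseudocount of 1 it was 340 and 350, and by the q-value alone 4223 and 5288. Members called after radiation stayed at 0 under these, except with the fold limit of 1.5 and with the q-value alone. The fold limit of 1.5 gave 1 in PANC-1 cells (RAD54L), against 1794 of 15159 genes tested. The q-value alone gave 3 in each line, against 4223 of 15731 genes in SW1990 and 5288 of 15159 in PANC-1 cells. Between unirradiated lines 6011 genes were called, or 3134 with the FPKM limit in both libraries, 3633 at an assumed coefficient of variation of 0.2, 1636 at 0.4 and 11259 by the q-value alone. Of the members, 3 were called there (17.3% of all genes called higher), 5 with scaling by total counts (21.3%) and 6 with a fold limit of 1.5 (24.2%). At a coefficient of variation of 0.2 there was 1 (10.5%), and at 0.4 there were 0 (4.92%). By the q-value alone there were 9, with 8 higher (32.4%) and 1 lower (35.3%). Between irradiated lines 3 were called, and 6 with a fold limit of 1.5 (24.5% of all genes called higher). At a coefficient of variation of 0.2 there were 2 (10.4%), and at 0.4 there were 0 (5.07%). Folds from FPKM gave 4 with 0 set to 0.01 (18.7%) and 3 with a pseudocount of 1 (15.9%). The q-value alone gave 9, with 8 higher (32.8%) and 1 lower (33.5%). For the difference of the responses 833 of 13228 genes tested and 0 of 9 members were called. With a ratio limit of 1.5 it was 1919 genes and 2 members, and by the q-value alone 3840 genes and 5 members. In the fit of 4 libraries, radiation gave 0 genes, or 39 with DESeq2 and 1 with limma. The line gave 6 members higher in SW1990, against 3890 of 18180 genes. With no filter beyond 1 count it gave 3, against 2918 of 30227 genes. Of 18180 genes, scaling by total counts gave 7 members and 4536 genes higher, DESeq2 6 and 3013, and limma 7 and 5049. The causes were not tested.

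The labels carry no replicate numbers, and the joint fit with cell line as a covariate is the only one that pairs libraries. Within a line, with 1 library per condition, the members' changes after radiation cannot be set against the spread between cultures, and the joint fit has 1 residual degree of freedom. At these depths the members had 160 to 3816 counts per library, so counting error was widest for RAD51C.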
